A study of Mus musculus with 12 samples.

Results

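The colon is lined by a mucus layer, and the 9 mucus barrier genes described here encode its mucins, its accessory secreted proteins and the factors that make them. They were chosen by gene symbol, as every row of the 6 deposited peak lists named Muc1, Muc2, Muc4, Muc13, Fcgbp, Tff3, Reg3b, Agr2 or Spdef. Of the 9 genes, 7 had at least 1 listed peak, among 11548 genes with a peak in any list. These 7 genes held 40 listed peaks, which merged into 16 regions when peaks sharing at least 1 base were joined. Muc2 and Muc13 had no listed peak in any mouse.

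The study mapped N6-methyladenosine (m6A), an internal modification of mRNA, by antibody pull-down (MeRIP-seq) in colon of male wild-type C57BL/6J mice, 6 to 8 weeks old and 20 to 22 g. In the normal group 3 mice were kept on normal feeding, and in the TNBS group 3 mice received 2,4,6-trinitrobenzenesulfonic acid (TNBS, 5% w/v) into the colon, a hapten that provokes an acute immune colitis used as a model of Crohn's disease. The time between instillation and tissue collection is not given in the labels. Each mouse gave an immunoprecipitated and an input library, and 1 peak list was made per mouse from the pair. The labels give no further source for the mice. The p-values below come from regrouping these 6 samples, 3 against 3, and describe these samples only.

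Goblet cells store the gel-forming mucin Muc2 and release it together with Fcgbp and trefoil factor Tff3, and together they build the gel that keeps bacteria at a distance. Transmembrane mucins such as Muc1, Muc4 and Muc13 stand on the surface of the epithelial cells below it. Agr2, a disulfide isomerase of the endoplasmic reticulum, is needed to fold Muc2, and the ETS-family factor Spdef drives the maturation of goblet cells. Reg3b is a secreted C-type lectin that kills bacteria and is induced by inflammation. m6A is placed on nascent mRNA, often in long exons and around stop codons, and is read by proteins that change the stability and translation of the transcript.

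List length was 16488, 16324 and 13992 peaks for the normal mice, and for the TNBS mice 18752, 10971 and 19285. TNBS 2 had the shortest list and covered 59.6% of the 11548 genes, against 70.6% to 82.6% in the other lists, while the highest number given to a peak by the caller was 256774 in TNBS 2 and 54262 to 102214 elsewhere. Peaks in 10 Y-linked genes of male cells numbered 8, 7 and 6 in the normal lists and 10 in TNBS 2. TNBS 1 and TNBS 3 listed 0 such peaks, although the labels describe all mice as male. The colon label was compared with marker genes. Of 12 epithelial markers, 8 had a peak in any list and 4 had one in every list (Cdx1, Cdx2, Krt20 and Vil1). Cdh1, Krt18, Krt19 and Tspan8 had none. Of 10 retina markers, included because the extraction protocol speaks of retinas, 1 had a peak in 1 list (Abca4 in TNBS 2). Listing of a peak depends on how much of the transcript was present and how deeply it was read, and in whole colon fewer epithelial cells and less RNA per cell cannot be told apart.

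Among these genes, 3 had a peak in at least 2 more TNBS than normal lists and 1 in at least 2 fewer. Fcgbp, Tff3 and Reg3b each had a peak in 2 of 3 TNBS lists and 0 of 3 normal lists, and Muc1 had one in 3 of 3 normal lists and 1 of 3 TNBS lists. Muc4 had a peak in all 6 lists, Spdef in 2 normal and 3 TNBS lists, and Agr2 in 1 of each. Per list, 78.2%, 76.8% and 70.6% of all 11548 genes had a peak in normal 1 to 3, and 82.6%, 59.6% and 81.7% in TNBS 1 to 3. Each of these 11548 had a peak in some list, while the 9 include Muc2 and Muc13, which had none. Of the 9 genes, 4, 2 and 3 had a peak in the normal mice and 6, 3 and 5 in the TNBS mice. This was 3 ± 1 against 4.67 ± 1.53 (mean ± SD, n = 3 each). The ranges of the groups overlapped from 3 to 4 genes, and normal 3 and TNBS 2 had the same count, 3. The difference of 1.67 genes was 1 without TNBS 1 and 2.5 without TNBS 2, and it was 0 when TNBS 2 alone was set against the normal mice.

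**Figure D1:**
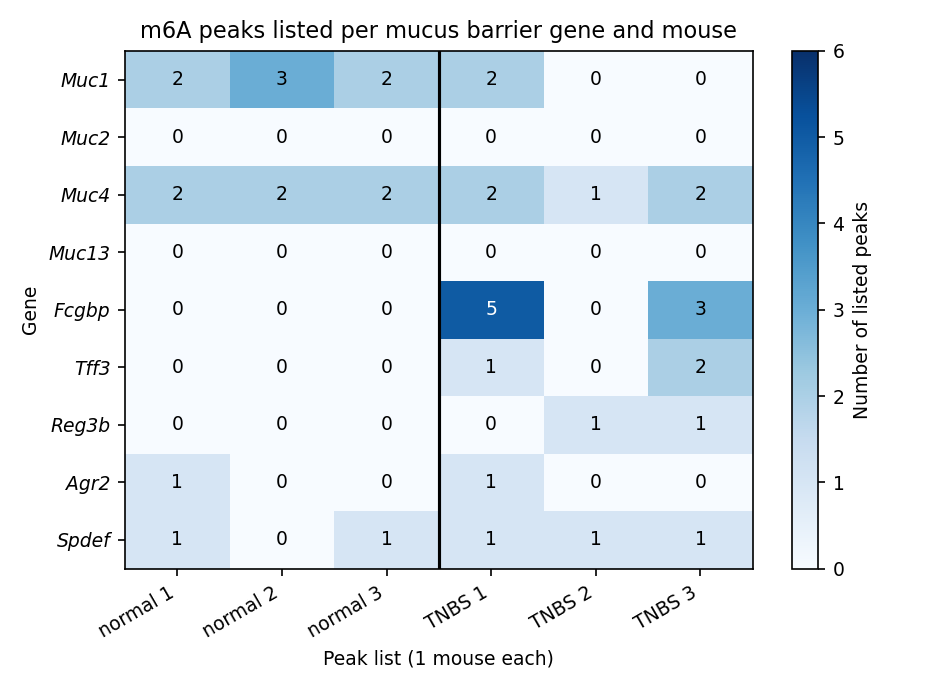
Number of listed m6A peaks for each mucus barrier gene (rows) in each peak list (columns, 1 mouse each), with the normal lists left of the black line and the TNBS lists right of it. Fcgbp, Tff3 and Reg3b are at 0 in the 3 normal lists, Muc1 is at 0 in TNBS 2 and TNBS 3, and Muc2 and Muc13 are at 0 throughout.

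These differences have to be read against the whole table. Among all 11548 genes, 6.74% had a peak in at least 2 more TNBS than normal lists, as did 3 of the 7 genes with a peak here, and 5.69% had one in at least 2 more normal than TNBS lists, as did 1 of the 7. A gene with a peak in all lists of a group and in no list of the other was found for 0.996% of genes toward TNBS and 1.04% toward normal, and for 0 of the 7. The median difference in the number of lists (TNBS minus normal) was 0 over the 9 genes, 1 over the 7 with a peak and 0 over all genes, each of which had a peak in some list. The 9 genes were proposed with these values already known, and the 7 had to have a peak somewhere to be counted, so the shares describe them and support nothing. By the exact two-sided permutation test on presence, p was 0.4 for each of Fcgbp, Tff3, Reg3b and Muc1 (n = 3 each). After Benjamini-Hochberg adjustment over the 11548 genes their adjusted p was 1. The smallest p that 3 against 3 mice allow is 0.1, so no gene of the table could reach 0.05.

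Muc1, the transmembrane mucin whose cytoplasmic tail also signals, carried m6A peaks at 3 places along its 4.33 kb gene on chromosome 3 (89229056 to 89233381, plus strand, GRCm38). The main peak, 89229911 to 89231214, lay 855 to 2158 bases from the 5′ gene end and had the same 1304 bases in all 4 lists that held it. Its fold enrichment, the ratio given by the authors' caller, was 13.9 in normal 1, 10.7 in normal 2, 12.6 in normal 3 and 5.78 in TNBS 1. TNBS 2 and TNBS 3 listed no peak in Muc1. Scores and folds are the authors' own values from lists called separately, so here and below they are set side by side as a description and show no change between mice. The score of this peak (-10 log10 p from the caller) stood at percentile 65.8 in normal 1, 73.1 in normal 2, 73.8 in normal 3 and 50.4 in TNBS 1, each among the peaks of that list.

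The peak at the 3′ end of Muc1 ended at the last base of the gene, 89233381. Over all lists 6956 peaks ended on the last base of their gene. Whether such an edge, here and below, follows the signal or the annotation was not tested. This Muc1 peak began at 89233024 in normal 1, normal 3 and TNBS 1 and 8 bases later, at 89233032, in normal 2. Its fold enrichment was 15.45 in normal 1, 9.31 in normal 2, 9.24 in normal 3 and 11.3 in TNBS 1. All 3 normal mice and 1 TNBS mouse thus held both of these places. A further short peak at the 5′ end, 89229056 to 89229177, was listed in normal 2 alone, at percentile 2.90 of that list. The bases covered by Muc1 peaks came to 1662, 1776 and 1662 in the normal lists and 1662, 0 and 0 in the TNBS lists (1700 ± 65.8 against 554 ± 960, mean ± SD, n = 3 each, exact permutation p = 0.3, adjusted p = 1). The groups met at 1662 bases, the value of normal 1, normal 3 and TNBS 1. In all, 227 of the 11548 genes shared the pattern of Muc1, present in every list but TNBS 2 and TNBS 3.

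Muc4, the transmembrane mucin with the longest gene here, was the member listed in every mouse. Its gene spans 46.5 kb of chromosome 16 (32735886 to 32782391, plus strand) and carried 1 peak near each end. The 3′ peak, 32781826 to 32782391, ended at the last base of the gene and had the same 566 bases in all 6 lists. Its fold enrichment was 19.96, 20.4 and 16.4 in the normal lists and 34.0, 5.97 and 17.6 in the TNBS lists. No mouse lacked this peak. The score was 3100 in the normal lists and TNBS 1, while TNBS 2 ranked it at percentile 34.8 and TNBS 3 at 78.8 of their own peaks. A score of 3100 was shared by 905 to 3087 peaks of a list, and a smaller number went above it, up to 3233. Peaks at 3100 thus have no order among themselves, and their percentile depends on the number of ties. A peak in all 6 lists was found for 48.1% of all genes.

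The 5′ peak of Muc4 ended at 32736452 in every list that held it, but its start moved: 32736088 in normal 1, 32735901 in normal 2, 32735919 in normal 3, 32735906 in TNBS 1 and 32735968 in TNBS 3. The start thus ranged from 15 to 202 bases inside the gene, with the TNBS starts within the range of the normal ones. TNBS 2 listed no peak there. Fold enrichment was 23.1, 22.1 and 27.5 in the normal lists, 23.2 in TNBS 1 and 17.5 in TNBS 3. Bases covered in Muc4 came to 1050 ± 103 in normal and 910 ± 300 in TNBS lists (n = 3 each, exact permutation p = 0.6, adjusted p = 1). This difference had the opposite sign without TNBS 2, at 32.3 bases more in the TNBS lists. Muc13, a transmembrane mucin of the intestinal epithelium (chromosome 16, 33794037 to 33819929), had no peak under its own or any other name.

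**Figure D2:**
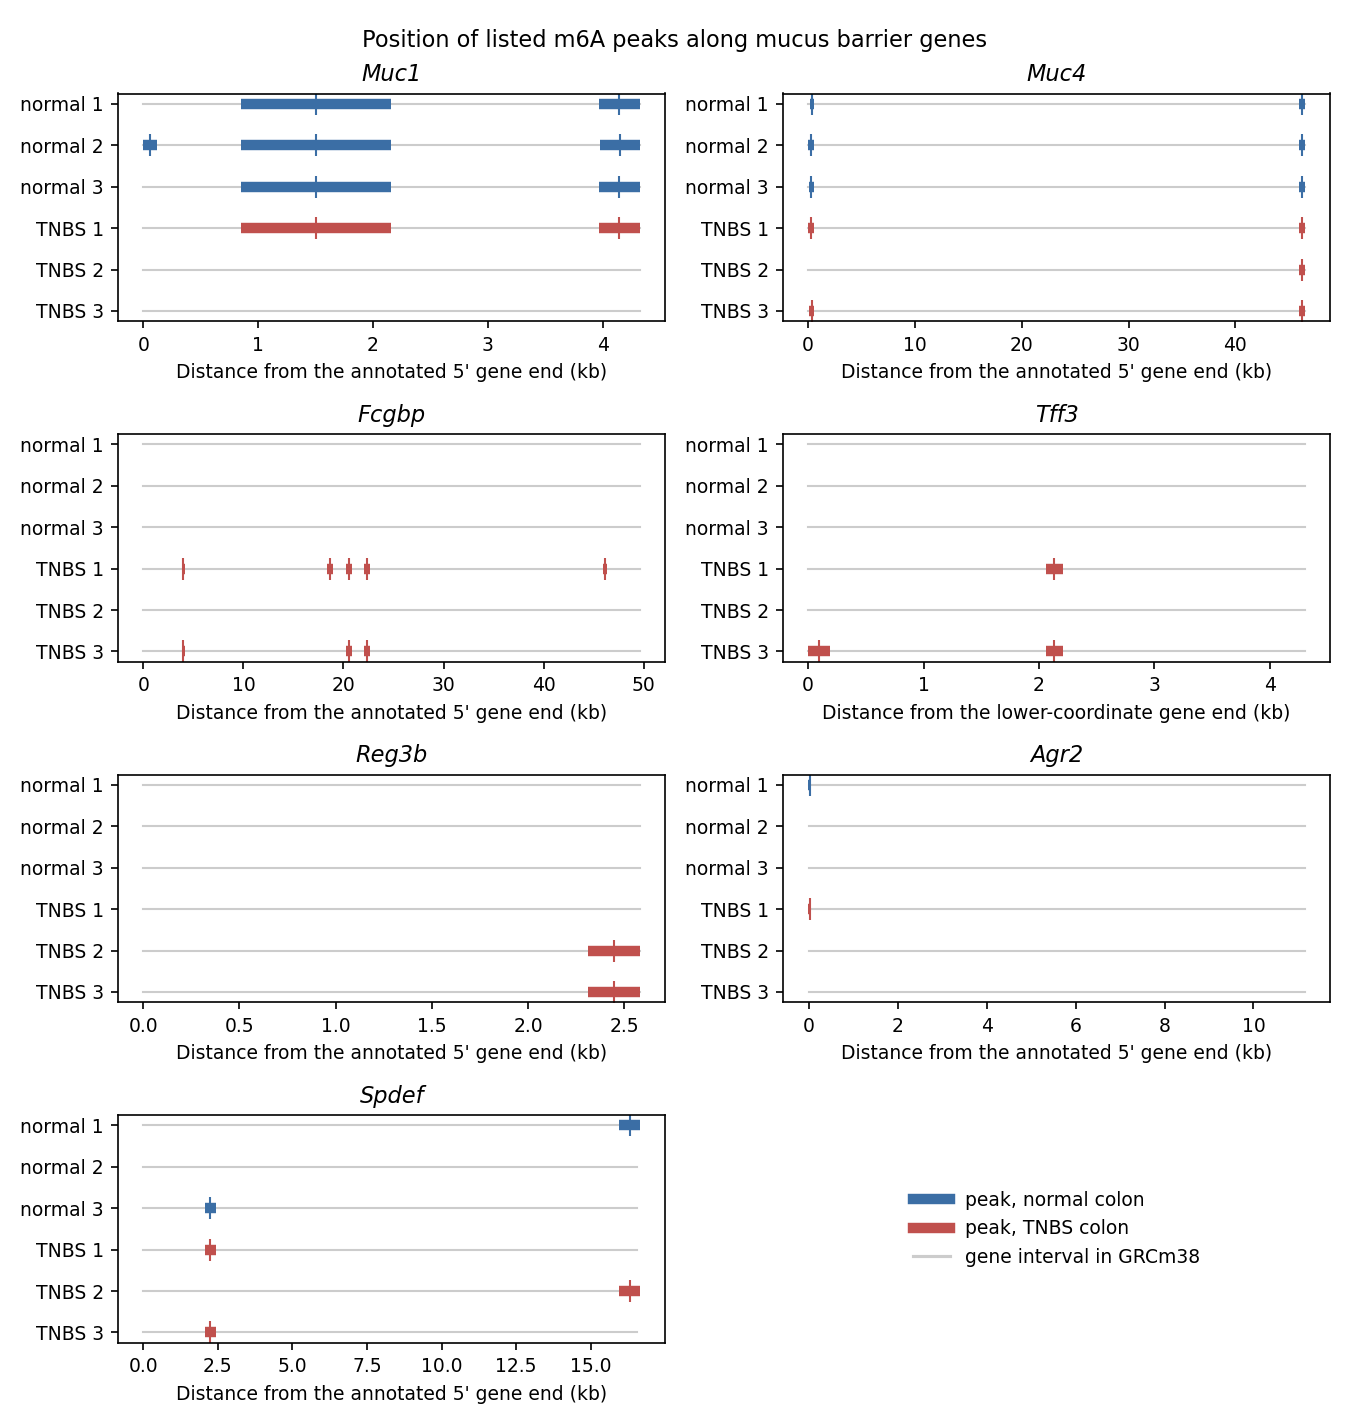
Position of listed peaks along the 7 genes that had one, in kb from the annotated 5′ gene end (for Tff3, whose strand was not in the table used, from the end with the lower coordinate), 1 line per mouse. Thick bars are peaks drawn to scale, the thin mark is the peak's middle, and the grey line is the gene interval. Apart from the 5′ Muc1 peak of normal 2, the Muc1 and Muc4 peaks stand at the same places in both groups, and Spdef peaks stand at 1 of 2 places depending on the mouse.

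Among the secreted gel proteins, Fcgbp and Tff3 had peaks in TNBS 1 and TNBS 3 only, while Muc2, the gel-forming mucin itself (chromosome 7, 141690340 to 141754691), had none. Fcgbp, a large protein built of repeated von Willebrand D domains that is bound into the mucus gel, carried 5 peaks in TNBS 1 and 3 in TNBS 3, all inside its 49.6 kb gene on chromosome 7 (28071236 to 28120864, plus strand). The 3 peaks of TNBS 3 had the same first and last base as 3 of the 5 in TNBS 1. Shared boundaries, here as in Muc1, Muc4 and Reg3b, are common: 57.6% of all regions listed in 2 or more mice had them.

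At 28075058 to 28075407 the fold enrichment of Fcgbp was 11.6 in TNBS 1 and 9.24 in TNBS 3. At 28091465 to 28092057 it was 10.3 and 7.05, and at 28093315 to 28093897 it was 14.8 and 8.33. Both mice thus held the same 3 places. TNBS 1 listed another peak at 28089592 to 28090159 with a fold enrichment of 42.1, and a weak one at 28117201 to 28117584 with 4.57. The last stood at percentile 9.23 of its list, and the other 7 Fcgbp peaks at 75.8 or higher. The caller's false discovery rate was 100% for the weak peak and for the 3 peaks of TNBS 3, and 52.4% for the others. Bases covered in Fcgbp were 0 in each normal list and 2478, 0 and 1526 in the TNBS lists (exact permutation p = 0.4, n = 3 each, adjusted p = 1). Because the domains of Fcgbp repeat, reads may be shared between its exons, so the position of a single peak is less certain than the presence of peaks in the gene.

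Tff3, a small trefoil peptide that helps to seal the epithelium, had weak peaks. The peak at chromosome 17, 31127365 to 31127511, had a fold enrichment of 5.49 in TNBS 1 and 3.84 in TNBS 3. A peak at 31125306 to 31125496, which starts on the lowest coordinate of the gene (31125306 to 31129611), was listed in TNBS 3 alone with 8.82. Their scores stood at percentiles 24.4, 3.98 and 29.6, all in the lower part of the lists. Each had a false discovery rate of 100% from the caller. When each list was cut to its 10971 strongest peaks, the length of the shortest list, Tff3 was in no list and Fcgbp in 2. The pattern of Fcgbp and Tff3, a peak in TNBS 1 and TNBS 3 and nowhere else, was shared by 422 genes, or 3.65% of all genes. These are the longest lists and the ones without peaks in Y-linked genes; the part of either in this pattern was not tested. With TNBS 2 alone against the normal mice, both genes were at 0 in both groups.

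Markers of the colon's cell types are given beside these results. Of 12 epithelial markers 8 had a peak in any list, with counts of 4, 5 and 4 in the normal lists and 5, 4 and 8 in the TNBS lists, and Epcam, Cldn7 and Lgals4 had one in TNBS 3 alone. Cdh1, Krt18, Krt19 and Tspan8 had none. Leukocyte markers numbered 5, 4 and 3 for normal 1 to 3 and 4, 2 and 3 for TNBS 1 to 3, smooth muscle markers 4, 4 and 6 against 6, 5 and 6, fibroblast markers 4, 4 and 4 against 5, 1 and 5, and enteric neuron and glia markers 2, 4 and 3 against 3, 2 and 2. Of the 6 leukocyte markers with a peak, 4 were in fewer TNBS than normal lists (among them Ptprc, in normal 1 and normal 2 alone), 1 in more (S100a9, in TNBS 1 and TNBS 2 alone) and 1 in equal numbers. The part of tissue make-up in the peaks of the mucus genes was not tested.

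Reg3b, the bactericidal lectin, had 1 peak, at chromosome 6, 78373199 to 78373466, which ended at the last base of the gene (78370885 to 78373466, plus strand). It was listed in TNBS 2 and TNBS 3 with the same 268 bases and in no other mouse. Fold enrichment was 17.7 in TNBS 2 and 6.88 in TNBS 3. In TNBS 2 its score was 3100, the value it shared with the other peaks tied there, and in TNBS 3 it stood at percentile 55.3. The caller's false discovery rate was 100% in both lists. Covered bases were 0, 0 and 0 in normal 1 to 3, then 0, 268 and 268 for TNBS 1 to 3 (exact permutation p = 0.4, n = 3 each, adjusted p = 1). Reg3b thus differed from Fcgbp and Tff3 in which TNBS mice listed it, and 63 of the 11548 genes shared its pattern. Reg3b kept its peak in both mice when peaks with p above 1e-10 were dropped, and when all lists had equal length. Its close relative Reg3g had no peak in any list, and reads from similar stretches of the pair could be assigned to either gene.

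**Figure D3:**
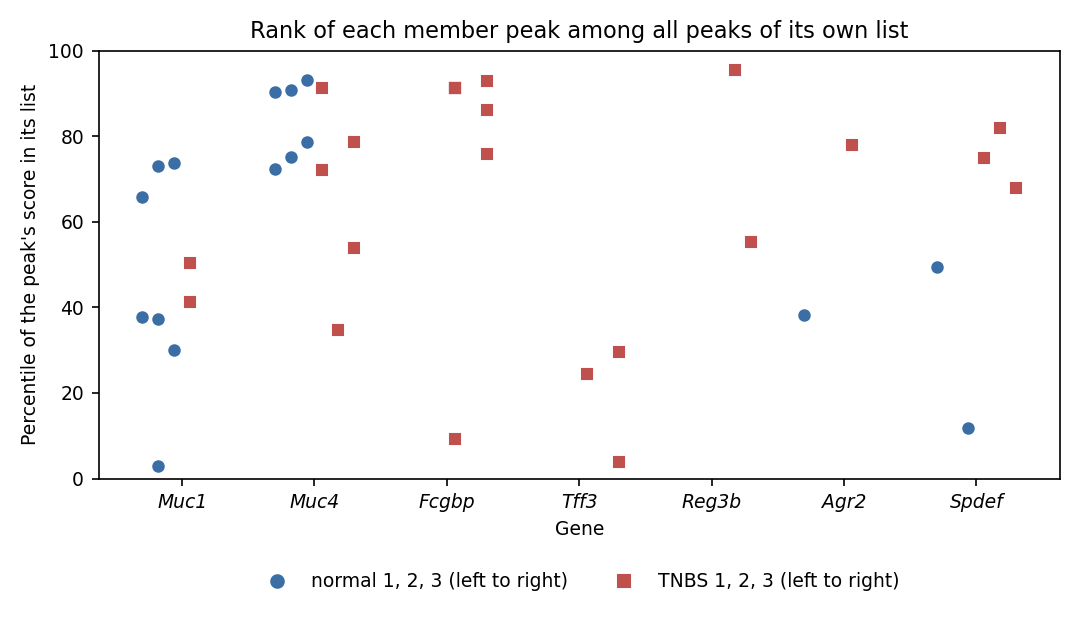
Percentile of the score of each of the 40 peaks among all peaks of its own list (vertical axis, 100 is the strongest), by gene and mouse; circles are normal and squares TNBS mice, from mouse 1 on the left to mouse 3 on the right. The points above 90 are the 10 peaks of Muc4, Fcgbp and Reg3b tied at a score of 3100, whose percentile depends on the ties in each list, and the 3 Tff3 peaks stood below 30.

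The makers of mucus, Agr2 and Spdef, each had a peak that met a transcript start, and Spdef also had one at its 3′ end. Agr2 carried the shortest peak of the set, 63 bases at chromosome 12, 35992907 to 35992969, which reaches over the annotated start of the gene (35992925) from 18 bases before it to 44 bases after it. It was listed in normal 1 with a fold enrichment of 7.18 and in TNBS 1 with 9.30, at percentiles 38.2 and 78.0 of their lists, and in none of the other 4 mice. Covered bases were 63, 0 and 0 in each group, so the groups had the same values.

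Spdef, on the minus strand of chromosome 17 (27714446 to 27731003), had exactly 1 peak in each list that held it, at 1 of 2 places. A peak at 27728553 to 27728951, whose upstream edge is the transcript start given for Spdef in the RefSeq promoter table, was listed in normal 3, TNBS 1 and TNBS 3 with fold enrichments of 4.8, 25.1 and 24.7. A peak at 27714352 to 27715046, over the 3′ end of the gene, was listed in normal 1 and TNBS 2 with 27.7 and 11.8. No mouse listed both, and normal 2 listed neither. Each place was thus listed in both groups. Scores were at percentiles 49.5 and 11.8 in the normal lists and 74.9, 81.9 and 67.9 in the TNBS lists, and with peaks of p above 1e-10 dropped the peak of normal 3 was lost, leaving 1 normal and 3 TNBS lists. Covered bases were 695, 0 and 399 for normal 1 to 3 and 399, 695 and 399 for TNBS 1 to 3 (exact permutation p = 0.9, n = 3 each, adjusted p = 1), and the difference, TNBS minus normal, changed sign to -49.3 bases without normal 2.

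Sequence is printed below for Agr2 and Spdef, where a word of the m6A motif was found on the transcript strand. The RefSeq promoter windows (GRCm38.p6) hold part of a listed peak for 4 genes, Muc1, Muc4, Agr2 and Spdef. The core m6A motif was searched there as 5-base words with A, G or T first, A or G second, then A and C, then A, C or T. The capitals mark the word found on the transcript strand, and each stretch lies inside the listed peak, at chr12:35992907-35992936 (plus strand) for Agr2 and chr17:27728920-27728949 (minus strand) for Spdef.
Agr2: acactgagAAACTtggacggcaacccttgc
Spdef: gcatcttaccccTGACTtccttccagcaca
Agr2 had 1 such word on the transcript strand of the 63 bases of its peak and 0 on the other strand, and 61.7% of the 32851 windows of the table held one at the same offset and length. Spdef had 1 on each strand of the 50 bases that its peak shares with the window, where 54.4% of windows held one on the transcript strand and 80.4% on either. The Muc1 peak of normal 2 shares 50 of its 122 bases with the window, which held 0 words on the transcript strand and 2 on the other. The 5′ Muc4 peaks of normal 2, normal 3 and TNBS 1 share at most 35 bases with it, which held 0 on both. For Muc4, 41.4% of windows held a word on the transcript strand and 67.5% on either. For Muc1 the shares were those of Spdef. The rest of these peaks was not searched. A word in these windows is common among all genes and does not mark a modified base, and its absence says only that these letters are not there.

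Taken by place rather than by gene, 5 of the 16 regions were listed in at least 2 more TNBS than normal lists, against 9.92% of all 26654 regions, and 2 in at least 2 more normal than TNBS lists, against 7.31%. The 5 were 3 regions of Fcgbp, the shared region of Tff3 and the region of Reg3b, and the 2 were the internal and 3′ regions of Muc1. None of the 16 separated the groups completely (3 of 3 lists against 0), which held for 0.949% of all regions toward TNBS and 1.54% toward normal. One region, the 3′ end of Muc4, was in all 6 lists, and 4 were in a single list. Regions listed per mouse came to 6, 5 and 5 for normal 1 to 3 and 12, 3 and 9 for TNBS 1 to 3 (5.33 ± 0.577 against 8 ± 4.58, n = 3 each). TNBS 2 lay below and TNBS 1 and TNBS 3 above every normal mouse. The difference of 2.67 regions was 0.667 without TNBS 1, 5.17 without TNBS 2 and -2.33 with TNBS 2 alone.

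By position, 4 of the 16 regions held the 3′ gene end (Muc1, Muc4, Reg3b and Spdef) and 2 the 5′ gene end (Muc1 and Agr2), where Tff3, with no strand in the table, counts as neither. Over 20700 regions of all genes with a known strand, 12.9% held the 3′ and 9.37% the 5′ gene end. Of the 12 regions listed in 2 or more mice, 10 had the same first and last base in every mouse, against 57.6% of such regions overall. Peaks of the 9 genes had a median width of 509.5 bases, from 63 to 1304, and those of all genes 574. No gene of the 9 had its covered bases in all TNBS lists above all normal ones or below all of them, which held for 2.77% and 5.85% of all genes.

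Genes that glycosylate, secrete and regulate mucins were examined as lists beside the 9. Of 27 mucin glycosylation enzymes, 26 had a peak in any list and 15 had one in all 6. Among all genes with a peak in any list, 48.1% had one in all 6. The list counts of normal 1 to 3 were 26, 26 and 25 and those of TNBS 1 to 3 were 25, 15 and 19, or 25.7 ± 0.577 against 19.7 ± 5.03 (n = 3 each). The groups touch at 25, with TNBS 2 and TNBS 3 below every normal mouse. TNBS 2 had the shortest peak list of all and TNBS 3 the longest, and the part of list length in these counts was not tested. Among the enzymes, 7 had a peak in at least 2 fewer TNBS than normal lists, against 5.69% of all genes. In at least 2 more TNBS lists were 0, against 6.74%. The median difference was 0 lists, as over all genes.

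Of these enzymes, Galnt1 and Galnt5, which start mucin O-glycans, B3gnt7, which extends poly-N-acetyllactosamine chains, and C1galt1c1, the chaperone of the core 1 synthase, each had a peak in 3 of 3 normal lists and in TNBS 1 only. The strongest peak of B3gnt7 had a fold enrichment of 19.0, 10.8 and 6.06 in the normal lists and 35.0 in TNBS 1. That of C1galt1c1 had 9.09, 8.93 and 6.56, and 5.56 in TNBS 1. For Galnt1 it was 12.85, 9.35 and 6.69, and 6.52 in TNBS 1, and for Galnt5 11.4, 8.82 and 5.99, and 5.38 in TNBS 1. None of the 4 had a peak in TNBS 2 or TNBS 3. For presence, the exact permutation p was 0.4 and the adjusted p 1 for each (n = 3 each). This is the pattern that Muc1 showed, and 227 of the 11548 genes had it. The 4 were picked for the largest differences in their list, so a large difference follows from the choice. St6galnac1 differed by as many lists in another pattern, with a peak in normal 1 and normal 2 alone.

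Goblet cell transcription factors had a peak in 11 of 11 genes, 11, 11 and 9 per normal list and 11, 6 and 10 per TNBS list. Foxa2, a forkhead factor of the gut epithelium, had a peak in 3 normal lists and TNBS 1, with fold enrichments of 32.8, 27.7, 18.2 and 16.7 for its strongest peak. Atoh1, which commits cells to the secretory lineage, and Foxa3 had one in all but TNBS 2, and the epithelial ETS factor Ehf in all but normal 3. Of the 11 factors, 0 were in at least 2 more TNBS lists, against 6.74% of all genes, and 1 in at least 2 more normal lists, against 5.69%.

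Secretory machinery genes had a peak in 18 of 25 genes, 15, 15 and 13 per normal list and 16, 7 and 14 per TNBS list. Tmed3, a cargo receptor of the early secretory pathway, was listed, like Fcgbp and Tff3, for TNBS 1 and TNBS 3 alone, with fold enrichments of 4.57 and 8.49. The stress sensor Atf6 had one in normal 2 and normal 3 alone (9.73 and 6.49), the disulfide isomerase Pdia5 in normal 1 and normal 2 alone (6.83 and 5.36), and the transglutaminase Tgm3, which cross-links mucus, in 3 normal lists and TNBS 1 (29.7, 13.8, 9.19 and 3.61). In at least 2 more TNBS lists was 1 of these 18 genes, against 6.74% of all genes, and in at least 2 more normal lists were 3, against 5.69%.

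Of 23 other mucins and secreted mucus proteins, 20 were in the gene table by symbol and 5 had a peak in any list, with 3, 3 and 0 per normal and 2, 0 and 2 per TNBS list. Among those with none were the gel proteins Clca1 and Zg16, the gel-forming mucins Muc5ac, Muc5b and Muc6, and the antimicrobial peptide Retnlb. Pigr, the receptor that carries IgA into the lumen, had one in normal 1, normal 2 and TNBS 1 with fold enrichments of 12.2, 8.86 and 11.8, and Reg4 in normal 1, normal 2 and TNBS 3 with 7.60, 5.11 and 37.6. Lypd8, which keeps flagellated bacteria off the epithelium, had a peak in TNBS 3 alone and Itln1 in normal 2 alone. The median difference was -1 lists over the 5 genes and 0 over the transcription factor and secretory lists.

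**Figure D4:**
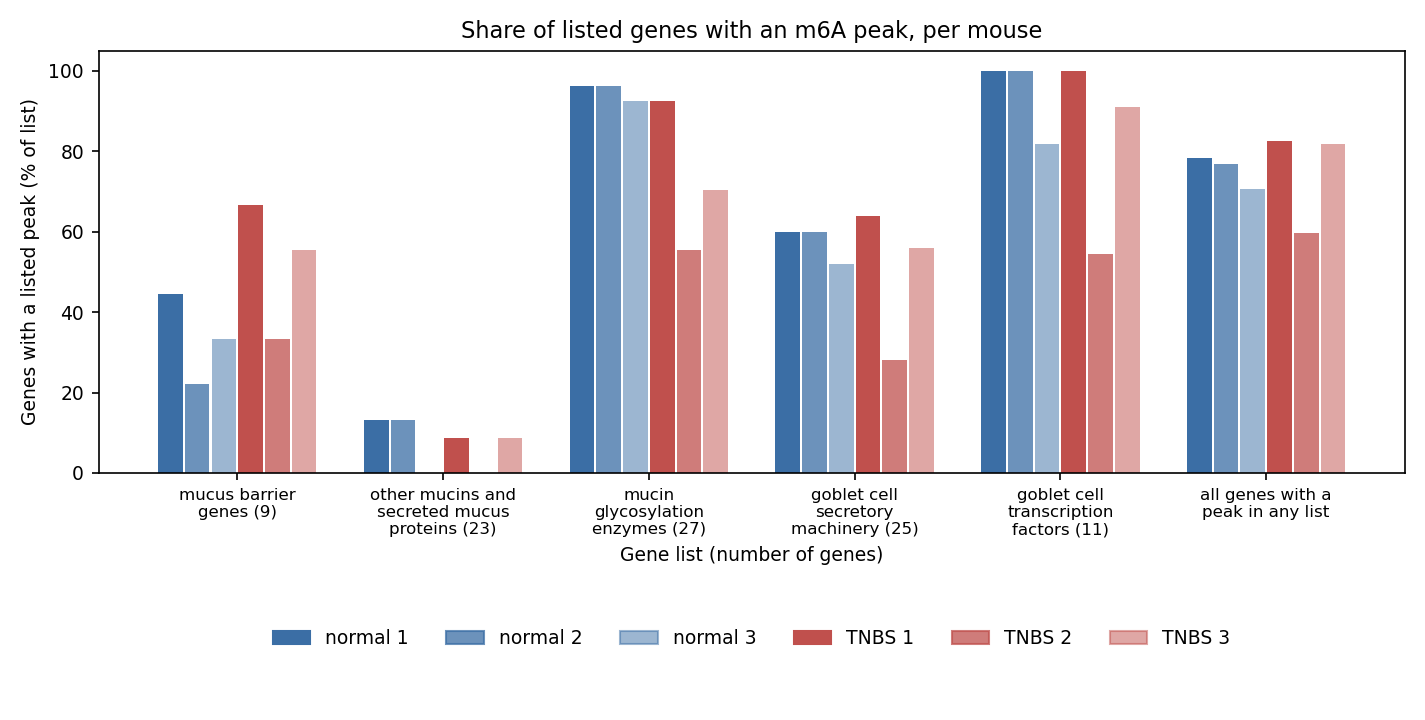
Share of the genes of each list that had a listed peak (vertical axis, percent of the genes in the list; for all genes, percent of the 11548 with a peak in any list), 1 bar per mouse, blue for normal and red for TNBS, from mouse 1 (darkest) to mouse 3. The mucus barrier genes reach their highest shares in TNBS 1 and TNBS 3, the glycosylation enzymes their lowest in TNBS 2 and TNBS 3. The share of all genes is also highest in TNBS 1 (82.6%) and TNBS 3 (81.7%), and it is lowest in TNBS 2 (59.6%).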

How the data were processed

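The submitters' processing notes name CASAVA 1.8, BWA and the human build hg19. The listed positions are mouse GRCm38: 7330 listed starts lay 1 below the first base of the gene of the same identifier and 395 on it, while 6956 ends lay on its last base, so starts were raised by 1 and all positions are counted from 1. Per the file headers and peak names, MACS peaks are listed for each mouse separately; the caller's settings are not given in the sources used here. Read depth is unknown, and no interval was computed. The score, minus 10 log10 of the caller's p, the fold enrichment (a ratio) and the false discovery rate in percent are as the authors deposited them. The lowest score was 50, a p of 1e-05, and no peak had a false discovery rate under 12.5%. A rate of 100% was listed for 10.5%, 13.7% and 37.8% of peaks in normal 1 to 3. In TNBS 1 to 3 it was listed for 66.6%, 100% and 99.99%. Member peaks at 100% in the normal lists were a Muc1 peak in normal 2 and in normal 3 and the Spdef peak of normal 3. In TNBS 1 they were every Muc1 peak, the weak Fcgbp peak and the Tff3 peak. In TNBS 2 and TNBS 3 they were every member peak listed. The deposited values were not tested between lists and are set side by side only as a description. The same score or fold minimum was applied to all lists in 2 alternatives.

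Presence of a peak, covered bases and regions merged over lists were computed with Python 3.11.15, and groups were compared by exact permutation (two-sided, all 20 assignments of 3 against 3 mice), with Benjamini-Hochberg adjustment over all genes, after testing the code on simulated data. All 9 genes were found in the GRCm38.p6 gene table and 8 in the promoter table. The members and the gene lists were chosen with earlier results of these data known. Named genes are the 9 members and up to 4 genes of each pathway list with the largest difference in number of lists, ties by alphabet; others, such as marker genes and list members without a peak, were named after their values were seen. Exon annotation was not used here.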

Additional observations from a re-analysis of the deposited data

Results flagged for a closer look

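A signal outside the rows chosen by gene symbol lay inside the interval of Fcgbp. Under the name Gm10935, 2 TNBS lists gave a peak there and 0 normal lists did. In TNBS 1 it ran from 28099660 to 28102487 on chromosome 7 with a fold enrichment of 17.9, and in TNBS 3 from 28100429 to 28102487 with 10.3. Both had a score of 3100, and both lists are those that held the Fcgbp peaks. What Gm10935 is was not analysed here.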

How the results depend on the processing

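The number of mucus barrier genes with a peak per list (TNBS minus normal) was 1.67, and 1 to 2.5 over the lists left out; over the other planned settings it ran from 1.33 with lists cut to equal length to 2 with peaks of p above 1e-10 dropped. The difference in their regions was 0.667 to 5.17 over the lists left out. Setting TNBS 2 alone against the normal mice was added after seeing the data; it gave 0 genes and -2.33 regions, a change of direction, and restricted counts of 510 and 1762 genes and 1243 and 3678 regions (TNBS, normal), with 1 list in place of 3. Restricted genes (all lists of a group, none of the other) numbered 115 toward TNBS and 120 toward normal, 151 to 537 and 145 to 347 over the lists left out, and 210 toward normal with lists of equal length. Restricted regions numbered 253 and 411, 316 to 2102 and 475 to 930 over the lists left out, and 168 toward TNBS with peaks of p above 1e-10 dropped. Leaving a list out loosens the rule, so the gene counts can only rise. Covered bases changed direction for Spdef without normal 2 and for Muc4 without TNBS 2, with ranges of -49.3 to 298 and -241 to 32.3 over the lists left out. Presence of Muc1 and Reg3b kept its direction, and that of Muc4 a difference of 0, in each setting run. By the exact permutation test no gene could reach an adjusted p under 0.05 in any setting, so this outcome says nothing of stability. With all 6 lists 0 genes had an unadjusted p under 0.05, which 3 against 3 mice, or fewer, cannot reach. Taken as pairs by number (replicate block), the difference is 1.67 genes by construction, and with 3 pairs the smallest p is 0.25, so this setting could call no gene and says nothing of stability; deviations of same-numbered lists correlated at 0.0319, -0.0537 and -0.0356, all under the 0.1 set for treating numbers as pairs. Read depth is unknown, so an unlisted peak cannot be told apart from a transcript too rare to be called.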
